A study of Mus musculus with 8 samples.

Results

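The 2′-5′ oligoadenylate synthetase (OAS) genes were examined in fully grown germinal vesicle (GV)-stage mouse oocytes that lacked CNOT7 and CNOT8, the deadenylase subunits of the CCR4-NOT complex. The 9 members, Oas1a, Oas1c, Oas1d, Oas1e, Oas1g, Oas1h, Oas2, Oas3 and Oasl2, were among 46078 genes in the count table, and 8 of the 9 had enough reads to be tested. They were chosen from this same comparison: Oas3 was picked for its very large decrease and the family was added to it. Changes of the members are therefore given as a description, with no p-value. The family has 3 further genes in the table, Oas1b, Oas1f and Oasl1, which are shown beside the members.

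RNA was sequenced from 8 libraries of 100 oocytes each, 4 per group. CNOT7&8 KO oocytes came from Cnot7 fl/fl Cnot8 fl/fl females carrying Zp3-Cre, and control oocytes came from Zp3-Cre mice, so that both groups carried the transgene. The Zp3 promoter drives Cre in growing oocytes, and the deletion leaves the other cells of the ovary intact. Females were 4 weeks old, on a C57BL/6J background, and oocytes were collected 48 h after injection of pregnant mare serum gonadotropin. The sources did not state whether replicates were separate animals, so p-values measure only the spread between these libraries.

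OAS enzymes are activated by double-stranded RNA and join ATP into short chains, the 2-5A molecules. These molecules switch on cleavage of single-stranded RNA in the cell, and interferon raises the transcription of many OAS genes. The mouse has an expanded set of Oas1 genes, of which Oas1a and Oas1g are known to encode active synthetases. Oas1d is known as an oocyte protein without synthetase activity that restrains active OAS1. Oas2 and Oas3 encode larger enzymes built from repeated OAS units, and Oasl2 encodes an active OAS-like protein with ubiquitin-like domains.

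The promoters differed in one element of the interferon response. The interferon-stimulated response element was searched as GAAA, any 2 bases and GAAA again, on both strands, from 250 bases before to 50 bases after the RefSeq start (GRCm38.p6), and 6 of the 9 members were in the promoter table. Oas1d, Oas1e and Oas2, and the further family gene Oas1b, had no promoter window of their own there and were not compared. The element was found in 3.44% of 32851 promoters. In the family it was found in Oas3, Oas1a, Oas1g and Oas1c, and these letters were not in the windows of Oas1h, Oas1f, Oasl1 or Oasl2. In Oas1a, Oas1g and Oas1c 2 matches overlapped each other. The match in the Oas1c window lay on the opposite strand, covered 16 bases and began 22 bases before the annotated start of the divergent gene Oas1b. The first match of each is shown with 10 bases to either side, with the element in capitals, to show how nearly alike Oas1a, Oas1g and the Oas1c/Oas1b promoter were and how Oas3 differed from them. Coordinates are chr5:120907526-120907555 (minus strand) for Oas1a, chr5:120887612-120887641 (minus strand) for Oas1g, chr5:120812603-120812632 (plus strand, read towards Oas1b) for Oas1c/Oas1b and chr5:120777715-120777744 (minus strand) for Oas3.
Oas1a: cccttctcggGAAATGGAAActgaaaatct
Oas1g: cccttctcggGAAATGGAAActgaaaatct
Oas1c/Oas1b: cccttcccggGAAATGGAAActgaaagtcc
Oas3: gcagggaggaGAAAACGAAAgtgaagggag
An E-box, searched as CANNTG, was found in the other 4 windows, with 2 matches each in Oas1h, Oas1f and Oasl1 and 1 in Oasl2, but 72.3% of all promoters hold it. The oocyte factor NOBOX's element TAATTG (8.00% of promoters) was found in 0 of the 8 windows. The letters TATAAA (13.6%) were found in Oasl2, on the strand opposite to the gene and 187 bases before its start, and the interferon-gamma element TTCNNNGAA (8.30%) in Oas1a.

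The 3′UTRs were compared because deadenylation acts on the mRNA 3′ end. Each was the longest annotated by GENCODE vM21 on the same genome build, and the background was 20384 genes with a median length of 992 bases. The cytoplasmic polyadenylation element TTTTAT was in 0 of the 9 members' 3′UTRs, against 52.5% of all genes, and the Pumilio element TGTAAATA was also in 0, against 10.8%. The other family genes Oas1b and Oasl1 each had 1 TTTTAT. Members' 3′UTRs were mostly shorter than the median, from 560 bases in Oas1h to 1625 bases in Oas2, and longer sequences hold a given motif more often. The AU-rich element ATTTA was in 7 of the 9, against 66.3%. Neither Oas1c nor Oas1h had one, whereas Oas1e had 3. The variant polyadenylation signal ATTAAA was in 4 members, Oas1c, Oas1d, Oas1e and Oas1h (49.0% of all genes), and in all 4 a copy lay in a stretch of closely similar letters. These stretches are printed, with ATTAAA in capitals, because the 4 genes they belong to were the 4 abundant oocyte members. The capitals lie at chr5:120800221-120800226 (minus strand) in Oas1c, chr5:120921623-120921628 (plus strand) in Oas1d, chr5:120786339-120786344 (minus strand) in Oas1e and chr5:120873481-120873486 (plus strand) in Oas1h, all GRCm38.
Oas1c: ttgaagcactgaATTAAAtcacaatgcact
Oas1d: ttgaagcactaaATTAAAgcaaaacgcatt
Oas1e: ttgaagcactgaATTAAAtcaaaatgcatt
Oas1h: ttgaagcactgaATTAAAgcaaaatgcatc
In Oas1c, Oas1d and Oas1h the annotated 3′ end followed 27, 24 and 20 bases later, and in Oas1e 113 bases later. The common signal AATAAA was in 8 of the 9 members (81.1% of all genes), all but Oas1c. In Oas1d, Oas1e and Oas1h it lay 99, 203 and 82 bases before the 3′ end. In Oas3, which had no ATTAAA, it lay 15 bases before the 3′ end. The Oas3 stretch is printed for comparison, with the signal in capitals at chr5:120753113-120753118 (minus strand).
Oas3: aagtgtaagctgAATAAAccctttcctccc

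Control libraries held between 14943671 and 44092144 counts and KO libraries between 8639444 and 26784110. Values in CPM are counts relative to the library total, after TMM scaling, in which the bulk of genes is assumed to be stable. A differentially expressed gene (DEG) had an adjusted p of at most 0.05 in edgeR's quasi-likelihood test and a change of at least 2-fold. Cnot8 was lower in KO oocytes (log2 fold change −2.25, SE 0.12, adjusted p = 8.2e-08, edgeR's quasi-likelihood test), and so was Cnot7 (−0.38, SE 0.11, adjusted p = 0.0105). All KO libraries lay below all control libraries for both genes, but with library size only or TMM on genes of at least 10 CPM, Cnot7 was at −0.092 and −0.12 and no longer past the threshold. Counts were per whole gene and include any exons that the deletion leaves. The 12 oocyte markers summed to between 19394 and 20406 CPM in control and to between 15288 and 18115 in KO libraries. Granulosa cell markers summed to between 128 and 176 CPM in control and to between 221 and 280 CPM in KO libraries. Of 11 tested, 7 were upregulated (63.6%, against 23.8% of all tested genes) and 0 downregulated (against 6.56%). Without the fold threshold 1 was lower, and Foxl2 was at 0 or 1 count in every library. Leukocyte markers summed to between 19.8 and 28.5 CPM in control and to between 14.5 and 20.4 CPM in KO libraries. Of 5 tested, 2 were upregulated (40%, against 23.8%) and 0 downregulated (against 6.56%). C1qc, Cd52, Tyrobp and Fcer1g were at 2 counts or fewer in every library. Stromal and endothelial markers summed to between 92.7 and 118 CPM in control and to between 77.3 and 92.8 CPM in KO libraries. Of 9 tested, 1 was upregulated (11.1%, against 23.8%) and 2 were downregulated (22.2%, against 6.56%). The part of these differences in the results on OAS genes was not tested.

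Transcripts of the 9 members made up 0.495% ± 0.0206 (SD, n = 4) of all counts in control oocytes and 0.305% ± 0.0238 in KO oocytes. Oas1c, Oas1d, Oas1e and Oas1h held between 99.6% and 99.8% of the members' counts in every library. Per kilobase of the longest transcript (RPKM, from TMM-scaled CPM), the order in control oocytes was Oas1e, Oas1d, Oas1c, Oas1h, Oas1f, Oas1b, Oasl1, Oas3, Oas1g, Oas1a, Oas2 and Oasl2. Oas1e was at 1098 ± 120 RPKM, the rank 30 of 45143 genes with a length. Oas1d was at 716 ± 64.0, Oas1c at 579 ± 41.1 and Oas1h at 411 ± 25.1 RPKM, and the ranges of these 4 genes did not overlap. Oas1f followed at 38.4 ± 0.921, Oas1b at 9.76 ± 1.08, Oasl1 at 3.48 ± 0.244 and Oas3 at 2.73 ± 0.635 RPKM. Ranges overlapped between Oasl1 and Oas3, between Oas3 and Oas1g (1.42 ± 0.429 RPKM), and between Oas2 and Oasl2, both at 0.0687 RPKM or less in every control library. The active synthetase genes Oas1g, Oas1a and Oas2 were therefore far below the 4 abundant Oas1 genes in these libraries, by level per length. In KO oocytes Oas1e (444 ± 63.1 RPKM) and Oas1d (438 ± 18.2 RPKM) overlapped, and Oas3 was 10th in the order.

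**Figure D1:**
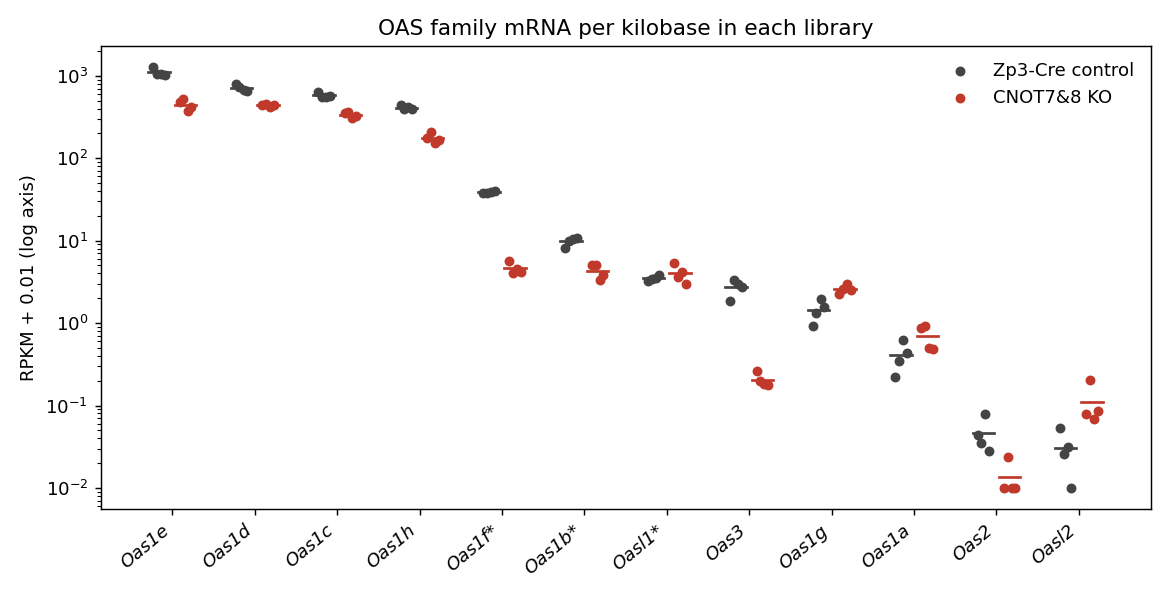
RPKM plus 0.01 on a log axis for each family gene (horizontal axis) in the 4 control libraries (dark points) and the 4 CNOT7&8 KO libraries (red points), with the group mean as a line; genes with an asterisk are not among the 9 members. Oas1e, Oas1d, Oas1c and Oas1h stand above 150 RPKM in every library, and Oas3 falls below Oas1g and Oas1a in KO oocytes.

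By the DEG definition, 3 members were downregulated in CNOT7&8 KO oocytes, Oas1e, Oas1h and Oas3, against 6.56% of the 19241 genes tested. One member, Oasl2, was upregulated, against 23.8%. DEGs in either direction made up 30.4% of the genes tested. In 5 members all KO values were below all control values (21.4% of all tested genes), and in 2 all were above (27%). Since the comparison chose the members, nothing is read from these counts. The median log2 fold change of the 8 tested members was −0.74. Over all tested genes it was 0.12, and over the 255 genes that averaged 500 CPM or more it was −0.48. In bulk RNA, fewer transcripts per oocyte and a smaller share of oocytes containing them cannot be told apart. 3 of the alternative scalings moved the median of all genes by 0.10 to 0.29 on the log2 scale. With library size only, or with TMM on genes of at least 10 CPM, 2 members instead of 3 were downregulated, Oas1h being under 2-fold (−0.94 and −0.97), and 3 and 2 instead of 1 were upregulated.

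**Figure D2:**
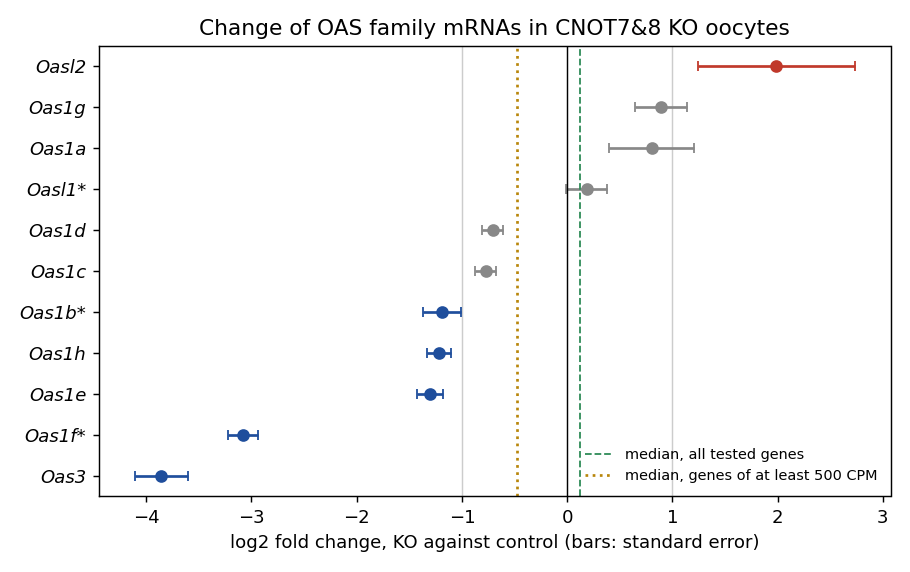
Log2 fold change of CNOT7&8 KO against control oocytes (horizontal axis, points with standard errors) for the 11 family genes that were tested, from edgeR; blue marks downregulated and red upregulated DEGs, and asterisks mark genes that are not among the 9 members. Oas3 and Oas1f lie at −3.85 and −3.08, and the 4 abundant Oas1 genes lie between −1.31 and −0.71, below the medians of all genes (0.12, dashed) and of genes of at least 500 CPM (−0.48, dotted).

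The 4 abundant oocyte genes were lower in all KO libraries, by different amounts. Oas1e, the most abundant, was at 2302, 1882, 1883 and 1844 CPM in control replicates 1 to 4 and at 855, 928, 672 and 747 CPM in KO replicates 1 to 4. Its mean fell from 1978 ± 217 to 800.5 ± 114 CPM, to 40.5% of control (log2 fold change −1.31, SE 0.13). Oas1h was at 759, 671, 705 and 667 CPM in control and at 300, 355, 263 and 287 CPM in KO libraries. Its mean of 301 ± 39.1 CPM was 43.0% of the control mean of 701 ± 42.8 CPM (log2 fold change −1.22, SE 0.11). For both genes the highest KO library lay far below the lowest control library.

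Oas1c and Oas1d changed less and stayed within 2-fold. Oas1c was at 1468, 1274, 1279 and 1287 CPM in control and at 810, 841, 708 and 745 CPM in KO libraries, a mean of 58.5% of control (log2 fold change −0.77, SE 0.10). Oas1d, the gene of the oocyte protein without synthetase activity, was at 1619, 1474, 1362 and 1335 CPM in control and at 883, 923, 836 and 900.5 CPM in KO libraries, 61.2% of control (log2 fold change −0.71, SE 0.10). The groups did not overlap for either gene.

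Ratios within a library do not depend on the scaling between libraries. Oas1e had 1.57, 1.48, 1.47 and 1.43 times the counts of Oas1c in control replicates 1 to 4, and 1.06, 1.10, 0.949 and 1.0 times in KO replicates 1 to 4. The ratio of Oas1h to Oas1c was 0.528 ± 0.016 in control and 0.387 ± 0.0242 in KO libraries, again without overlap. For Oas1d to Oas1c, control (1.09 ± 0.0521) and KO (1.14 ± 0.0598) overlapped, as did Oas1e to Oas1h (2.82 ± 0.153 and 2.66 ± 0.132). The 4 genes thus stood as pairs in these libraries, Oas1e with Oas1h and Oas1c with Oas1d. Centred log2 CPM over the 8 libraries differed by a root mean square of 0.0766 between Oas1e and Oas1h and of 0.0713 between Oas1c and Oas1d. Sequence identity had another order: coding sequences were 90.8% identical between Oas1d and Oas1e but 85.2% between Oas1c and Oas1d, and Oas1h shared 78.0% to 78.6% with the other 3. No stretch of 150 bases was shared exactly between these genes' transcripts.

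**Figure D3:**
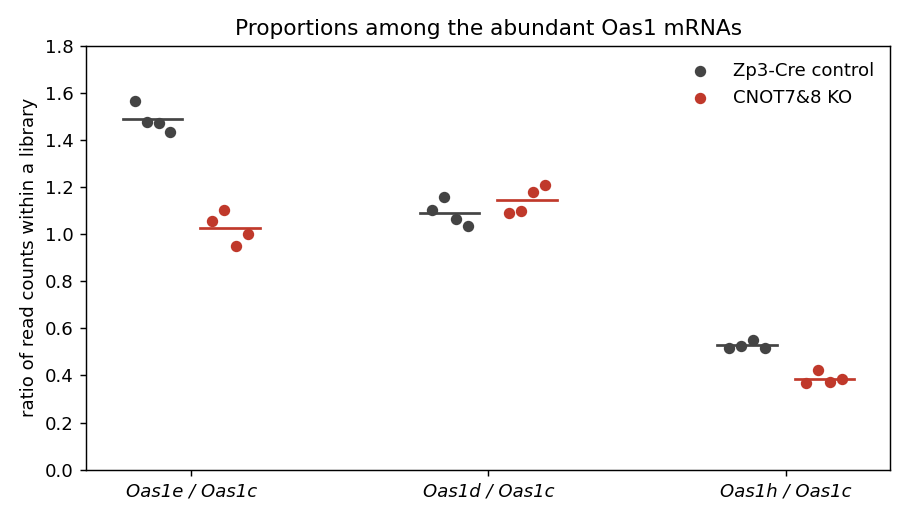
Ratio of read counts within each library (vertical axis, from 0) for Oas1e, Oas1d and Oas1h over Oas1c in the 4 control (dark) and 4 CNOT7&8 KO (red) libraries, with group means as lines. The groups are apart for Oas1e/Oas1c (1.49 in control and 1.03 in KO) and Oas1h/Oas1c, and overlap for Oas1d/Oas1c.

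Oas3, the family's largest enzyme, had the largest decrease among the members, the one by which it was chosen. It had 327, 319, 208 and 178 counts in control replicates 1 to 4 and 11, 16, 13 and 23 counts in KO replicates 1 to 4. In CPM these were 8.74, 15.74, 14.15 and 12.97 in control and 1.19, 0.88, 0.80 and 0.78 in KO libraries. The mean was 14.1-fold lower in KO oocytes, 0.915 ± 0.191 against 12.9 ± 3.0 CPM (log2 fold change −3.85, SE 0.25). Control replicate 1 was the lowest control library, and without it the log2 fold change was −4.01.

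Oas1f, an Oas1 gene outside the 9 members, also fell strongly. Its control libraries were close together at 55.4, 56.2, 57.3 and 58.5 CPM, and KO libraries were at 8.25, 5.93, 6.72 and 6.23 CPM, 8.38-fold lower (log2 fold change −3.08, SE 0.14). Oas1b, the flavivirus resistance gene that is truncated in C57BL/6, was at 15.1, 18.1, 19.0 and 19.6 CPM in control libraries and at 9.23, 9.28, 6.11 and 6.95 CPM in those of KO oocytes (log2 fold change −1.19, SE 0.18). Both were downregulated DEGs with no overlap of the groups, but Oas1b was under 2-fold with library size only (−0.91) and with TMM on genes of at least 10 CPM (−0.95). Oasl1, an OAS-like gene without synthetase activity, was at 6.98 to 8.23 CPM in control and at 6.44 to 11.6 CPM in KO libraries and was not a DEG (log2 fold change 0.19, SE 0.19).

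The active synthetase genes Oas1g and Oas1a were measured at a few CPM and did not go down with the abundant Oas1 genes. Oas1g had 67, 52, 56 and 42 counts in control and 41, 93, 95 and 147 counts in KO libraries. Scaled to depth, these were 1.79, 2.57, 3.81 and 3.06 CPM in control and 4.45, 5.11, 5.86 and 5.01 CPM in KO libraries, so that every KO library was above every control library (log2 fold change 0.89, SE 0.24). The change was under 2-fold, but over it and a DEG with library size only (1.17), with TMM on genes of at least 10 CPM (1.13) and without control replicate 3 (1.07). Oas1a was at 0.40, 0.64, 1.16 and 0.80 CPM in control and at 1.63, 1.70, 0.93 and 0.89 CPM in KO libraries, and the groups overlapped (log2 fold change 0.80, SE 0.41). With library size only, Oas1a was over 2-fold and a DEG (1.08). The 2 genes are 96.7% identical in coding sequence, with an identical run of 231 bases. Of all 150-base stretches, 32.4% of those in Oas1a and 30.1% of those in Oas1g occur exactly in the other, so reads could be split between them and their separate values are uncertain.

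Oas2 and Oasl2 were near the limit of detection. Oas2 had 5, 2, 4 and 1 counts in control and 0, 1, 0 and 0 counts in KO libraries, was below the filter and was not tested. All KO libraries were within 3 counts, and no fold change is given. Oasl2 had 5, 1, 1 and 0 counts in control and 2, 11, 3 and 7 counts in KO libraries, or 0.0628 ± 0.0553 against 0.311 ± 0.197 CPM (log2 fold change 1.99, SE 0.74). It was an upregulated DEG in edgeR's quasi-likelihood test, but not with DESeq2, with the replicate block (2.13) or without KO replicate 2, the library with 11 counts, in which the log2 fold change was 1.49. It was also lost without control replicate 2, 3 or 4, at 1.85, 1.96 and 1.72.

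Members with higher and with lower means in KO oocytes lie side by side on chromosome 5. Neither of the higher ones there, Oas1g and Oas1a, was a DEG in the main test, but both were with library size only. The main cluster holds 10 family genes over 191320 bases (chr5:120730333-120921652, GRCm38). Oas3 (chr5:120753098-120777661), Oas1e (chr5:120786226-120795530) and Oas1c (chr5:120800194-120812514), all on the minus strand, follow Oas2. Oas1b begins 120 bases beyond the start of Oas1c on the plus strand, and Oas1f and Oas1h (chr5:120861421-120873506) follow on the plus strand. Oas1g (chr5:120876142-120887613) and Oas1a (chr5:120896256-120907521) on the minus strand lie between Oas1h and Oas1d (chr5:120914536-120921652), and both of these neighbours were lower in KO oocytes. Oasl2 (chr5:114896936-114912234) and Oasl1 form a separate cluster. An antisense gene, Gm43069, overlaps annotated exons of Oas1c but had only 0.168 CPM in control and 0.0170 CPM in KO oocytes.

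**Figure D4:**
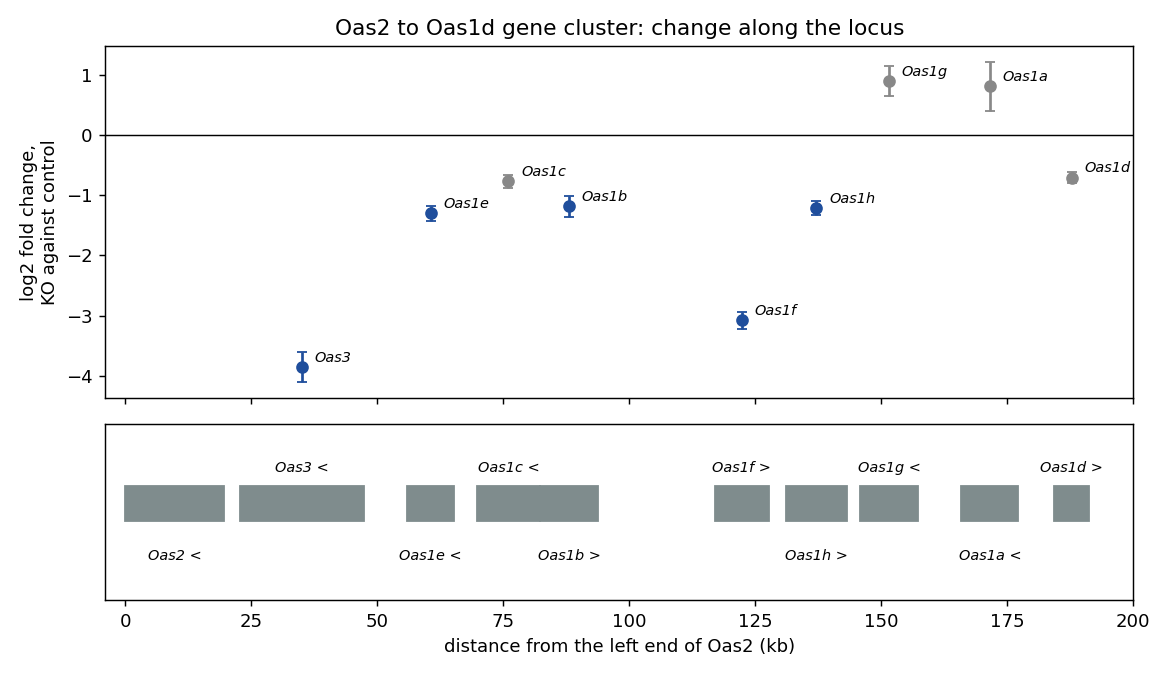
Upper panel: log2 fold change with standard error of each tested gene of the main OAS cluster against the distance in kb of its midpoint from the left end of Oas2, with blue for downregulated DEGs and grey for the others. Lower panel: gene extents to scale, with < for the minus and > for the plus strand; Oas1g and Oas1a, at 0.89 and 0.80, lie between Oas1h (−1.22) and Oas1d (−0.71).

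Genes flanking the main cluster did not share one direction. On the Oas2 side, Rasal1 was downregulated (log2 fold change −1.43, adjusted p = 0.000583, edgeR's quasi-likelihood test), Ddx54 was upregulated (1.45, adjusted p = 0.00375) and Rita1 was at −0.13. On the Oas1d side, Rph3a, Ptpn11 and Rpl6 had log2 fold changes of −0.32, −0.22 and −0.27, with adjusted p of 0.0625, 0.117 and 0.0819 in the same test. Beside the Oasl cluster, on the Oasl2 side, Ankrd13a was at −0.47 and 1500011B03Rik at 0.74 (adjusted p = 0.00423 and 0.000419, same test), both under 2-fold. 4930519G04Rik, at 0.280 CPM in control and 0.546 CPM in KO oocytes, was not a DEG (1.01, adjusted p = 0.115, same test). On the Oasl1 side, 2210016L21Rik (2.0) and Sppl3 (1.20) were upregulated. Hnf1aos1 there was at 0.0305 CPM in control and 0.277 CPM in KO oocytes.

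The genes whose pattern over the 8 libraries was most like Oas1e or Oas3 were sought among 13749 tested genes outside the family that averaged 1 CPM or more. For Oas1e these were Ctsh, Farsb and Ppil3, with root mean square differences of centred log2 CPM of 0.0636, 0.0640 and 0.0725. All were smaller than the 0.0766 between Oas1e and Oas1h, so a likeness of that size was not particular to the family. Ctsh encodes the lysosomal protease cathepsin H and went from 212 ± 26.3 to 90.4 ± 11.7 CPM. Farsb, a subunit of phenylalanyl-tRNA synthetase, went from 225 ± 26.4 to 84.2 ± 10.7 CPM. For Oas3 they were Rapgef3, Cd177 and Pabpn1l, at the larger differences of 0.207, 0.404 and 0.407. Rapgef3, the cAMP-activated exchange factor EPAC1, went from 31.0 ± 8.74 to 2.85 ± 1.07 CPM. Pabpn1l, a poly(A)-binding protein of oocytes, went from 440 ± 120 to 53.9 ± 10.4 CPM. Oas1f differed from Oas3 by 0.381.

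Of 4 other genes of the 2-5A pathway, all tested, 1 was upregulated (25%, against 23.8% of all genes) and 0 were downregulated (against 6.56%) by edgeR's quasi-likelihood test, with 0 lower at an unadjusted p under 0.05 and 0 downregulated by edgeR's exact test or DESeq2. Abce1, the ribosome recycling factor that also restrains the 2-5A pathway, was at 44.1 ± 8.77 CPM in control and 43.7 ± 3.35 CPM in KO oocytes, and its sign changed with the scaling (−0.01 here, 0.28 with library size only). Pde12, a phosphodiesterase that degrades 2-5A, was at 38.0 ± 2.79 and 42.5 ± 3.48 CPM (log2 fold change 0.16, adjusted p = 0.256, edgeR's quasi-likelihood test). Akap7, whose gene also encodes a 2-5A-degrading domain, was at 120 ± 12.6 and 139 ± 9.11 CPM (0.20, adjusted p = 0.133). Both values moved with the scaling. With library size only and with TMM on genes of at least 10 CPM, Pde12 was at 0.45 and 0.41 and Akap7 at 0.49 and 0.46, all past the adjusted p threshold but under 2-fold. Enpp1, an ectonucleotide phosphodiesterase, rose from 0.378 ± 0.168 to 6.11 ± 2.30 CPM in 4 of 4 KO libraries (log2 fold change 3.92, SE 0.38, adjusted p = 5.68e-06, edgeR's quasi-likelihood test).

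Genes of double-stranded RNA sensing, some of which share their ligand with OAS, changed in both directions in KO oocytes. Of 11 genes 10 were tested, 4 were upregulated (40%, against 23.8% of all genes) and 0 downregulated (against 6.56%) by edgeR's quasi-likelihood test, with 3 lower at an unadjusted p under 0.05 and 0 downregulated by edgeR's exact test or DESeq2. The median log2 fold change of the 10 was 0.95, against 0.12 over all genes. The summed level of the list did not rise: it was between 225 and 260 CPM in control and between 204 and 228 CPM in KO libraries. Ifih1, the sensor MDA5, had 1, 2, 0 and 2 counts in control and 13, 25, 31 and 85 counts in KO libraries, at least 11.7-fold higher against a floor of 3 counts over the control libraries. Eif2ak2, the kinase PKR, rose from 1.48 ± 0.637 to 5.01 ± 1.88 CPM (log2 fold change 1.71, SE 0.34, adjusted p = 0.00124, edgeR's quasi-likelihood test). Tlr3, the endosomal sensor, rose from 7.54 ± 1.53 to 18.3 ± 4.57 CPM (1.28, adjusted p = 0.000247 in the same test), and Prkra, a PKR activator, from 1.47 ± 0.402 to 3.40 ± 0.809 CPM (1.17, adjusted p = 0.00354). The 3 lower genes, named after their values were seen, were Ddx58, the sensor RIG-I (−0.67), Adar, an RNA editing enzyme (−0.43), and Tarbp2 (−0.71).

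Most interferon signalling genes stayed within 2-fold. Of 14 genes 11 were tested, 2 were upregulated, Ifngr1 and Irf9 (18.2%, against 23.8% of all genes), and 0 were downregulated (against 6.56%) by edgeR's quasi-likelihood test, with 3 lower at an unadjusted p under 0.05 and 0 by edgeR's exact test or DESeq2. Ifngr1, a subunit of the interferon-gamma receptor, was at or under 3 counts in every control library and at least 15.4-fold higher in KO libraries. Irf9, a subunit of the factor that binds the response element, had 7, 1, 0 and 1 counts in control and 6, 9, 9 and 14 in KO libraries (log2 fold change 2.42, adjusted p = 0.00608, edgeR's quasi-likelihood test). The median of the 11 was 0.15. Without the fold threshold, 3 genes were higher and 3 were lower. Named after their values were seen, the lower genes were Ifnar1 (log2 fold change −0.77), Irf1 (−0.44) and Tyk2 (−0.57). Ifnar1 had a mean of 60.4 CPM in control and 35.4 CPM in KO oocytes, and the groups did not overlap. Stat2, also named after its values were seen, was the other higher gene (0.76).

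Of 28 interferon-stimulated genes other than the OAS family, 22 were tested. By edgeR's quasi-likelihood test 10 were upregulated (45.5%, against 23.8% of all genes) and 0 downregulated (against 6.56%). At an unadjusted p under 0.05, 0 were lower, and edgeR's exact test and DESeq2 gave 0 downregulated. The median log2 fold change of the 22 was 1.17. It was 1.01 when genes at the floor in control but not in KO libraries were set to their bound. Of the 10, 7 had at most 3 counts in every control library, as had 14 of all 28 genes, in which a decrease could hardly be seen. Rtp4, a chaperone of receptor proteins, was at 4.01 ± 0.996 CPM in KO oocytes, at least 24.6-fold above the floor in control oocytes. Tap1, the antigen peptide transporter, was at 3.23 ± 0.957 CPM, at least 19.9-fold above it. Psmb9 and Usp18 were at least 1.81-fold and 2.03-fold above it. The Usp18 bound rested on KO replicate 2, at 0.824 CPM where the other KO libraries were at 0.109 to 0.204. Isg15, also among the 10, was at or under 3 counts in all 8 libraries. It was no longer past the adjusted p threshold in 7 of the 14 alternatives in which it was tested. The upregulated count was 5 when at least 1 CPM in 4 libraries was required. These were low levels: the whole list of 28 summed to between 196 and 242 CPM in control and to between 270.3 and 310 CPM in KO libraries. Granulosa cell markers summed to between 128 and 176 CPM in control and to between 221 and 280 CPM in KO libraries, and their part in the values of this list and of the sensor and signalling genes was not tested.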

How the data were processed

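Total RNA of 100 GV oocytes per library was sequenced as 150-bp pairs after depletion of ribosomal RNA. The labels name a stranded total RNA kit and the study's methods a stranded mRNA kit. The authors ran nf-core/rnaseq, with STAR 2.6.1d as the aligner and GRCm38 as the genome, and deposited raw counts per gene; edgeR 3.11 is also listed in the submitters' processing notes. The counting tool, annotation and strand setting are not given in the sources used here, so genes that overlap or share sequence have uncertain values.

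The main test was edgeR's quasi-likelihood test (edgeR 4.0.16, limma 3.58.1, R 4.3.3) after TMM scaling. It was run on the 19241 genes that reached 0.2 CPM in 2 libraries, with Benjamini-Hochberg adjustment over all of them. Alternatives were edgeR's exact test, DESeq2 1.42.0, other scalings and filters, no fold threshold, a replicate block and leaving out each library. A group with at most 3 counts in every library was taken to be at the floor, which covers counting error only. On simulated data of 19241 genes, the quasi-likelihood test recovered 196 of 200 genes changed 4-fold (KO against control), with 7 false calls. The changed genes were few, balanced between up and down and not of low counts. The simulation therefore does not cover shifts in scaling or genes at a few counts. Of the gene identifiers, 98.0% matched GENCODE vM21. Sequences were read with Python 3.11.15 from RefSeq promoters and GENCODE vM21 transcripts. Coding sequences were aligned with Biopython 1.88, and figures were drawn with matplotlib 3.10.9. No 2 libraries agreed within sampling noise (the smallest chi-square per degree of freedom was 7.85).

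The members and gene lists were chosen with earlier results of these data known. The genes named were the family, the 2-5A genes, the targeted genes, at most 5 DEGs of largest change per other list, the 3 genes nearest in pattern to Oas1e and to Oas3, and the 3 nearest tested genes on each side of each OAS cluster; others are marked as named after their values were seen. One item of the pathway is not reported here.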

Additional observations from a re-analysis of the deposited data

Results flagged for a closer look

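A library far from the other 3 of its group, by Dixon's test at the 95% level, was found in 5 of the 49 groups of 4 examined, where chance gives about 2.45. In control replicate 1, the deepest library, Oas1c was at 1468 CPM (others 1274 to 1287), Oas1e at 2302 CPM (others 1844 to 1883) and Cnot7 at 1049 CPM (others 886 to 900.2). Without that library the log2 fold change was −0.72 for Oas1c and −1.22 for Oas1e. In KO replicate 2, Oasl2 was at 0.604 CPM (others 0.185 to 0.238) and Usp18 at 0.824 CPM (others 0.109 to 0.204).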

How the results depend on the processing

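Each of the 8 tested members kept its direction under every alternative in which it was tested. Log2 fold changes ranged from −1.36 to −1.02 for Oas1e, from −1.29 to −0.94 for Oas1h, from −0.79 to −0.49 for Oas1c, from −0.75 to −0.42 for Oas1d, from −4.01 to −3.58 for Oas3, from 0.71 to 1.17 for Oas1g, from 0.55 to 1.09 for Oas1a and from 1.49 to 2.75 for Oasl2. Low values limit Oas1a, Oasl2 and Oas2.

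Upregulated members numbered 1, and 3 with library size only, 2 with TMM on genes of at least 10 CPM, 2 with no fold threshold, 0 with DESeq2, 0 with at least 1 CPM in 4 libraries (where Oasl2 was not tested) and 0 with the replicate block. Downregulated members numbered 3, and 5 with no fold threshold and 2 with library size only or TMM on genes of at least 10 CPM, where Oas1h was under 2-fold. Leaving out each library gave from 0 to 1 upregulated members, with 0 without control replicate 2, control replicate 4 or KO replicate 2, and 3 downregulated members throughout.

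Over all genes 4582 were upregulated and 1263 downregulated. With library size only these were 5643 and 587, with TMM on genes of at least 10 CPM 5495 and 628, and downregulated genes numbered 4631 with no fold threshold. Upregulated genes numbered 2882 with at least 1 CPM in 4 libraries, where fewer genes were tested. Of the 2-5A, double-stranded RNA and interferon signalling genes, 7 were upregulated and 0 downregulated, against 11 upregulated with library size only and 6 lower with no fold threshold. Upregulated interferon-stimulated genes numbered 10, and 5 with at least 1 CPM in 4 libraries.

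The sign of Abce1 (−0.01) turned with library size only (0.28), RLE (0.0050), upper quartile (0.090), TMM on genes of at least 10 CPM (0.25), DESeq2 (0.0046), no filter (0.012), at least 1 CPM in 4 libraries (0.059) and the replicate block (0.0071), and ranged from −0.098 to 0.12 without single libraries. The cause was not tested.

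The labels number replicates alike in the groups, and deviations of same-numbered libraries correlated at −0.0719, −0.0418, 0.110 and −0.121. No pairing by number was seen in these values. With so few libraries per group they cannot exclude a shared collection or preparation. With the replicate block 4316 genes were upregulated and 1254 downregulated, with 3 members downregulated and 0 upregulated.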
